A study of Homo sapiens with 8 samples.

Results

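The mitochondrial ribosome is built from RNAs made inside the mitochondrion and from proteins that are encoded in the nucleus, translated on cytosolic ribosomes and imported. It makes the core subunits of the respiratory chain. Its small subunit decodes the message, its large subunit forms peptide bonds beside an exit tunnel that faces the inner membrane, and both carry proteins inherited from bacteria together with others that only mitochondria have. Here the mRNAs of these proteins were followed through sucrose gradients of acute myeloid leukaemia cells. The genes were taken by symbol: protein-coding genes named MRPL or MRPS followed by a number, without pseudogenes. This gave 78 of the 78932 genes counted, 49 named for the large and 29 for the small subunit, and 87 pseudogenes, antisense and divergent transcripts with similar names were left out. All 78 passed the filter on low counts and were among the 24289 genes tested.

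RNA was sequenced from 8 libraries of the human leukaemia lines Molm13 and U937, which were treated with cycloheximide and lysed before the lysates were spun through sucrose. For each line label 1 control gradient and 1 gradient of cells labelled OGFOD1 OE (overexpression from a lentiviral vector; OGFOD1 is a prolyl hydroxylase of the cytosolic ribosomal protein RPS23) was split into a light pool, of free ribonucleoproteins, monosomes and disomes, and a heavy pool, of polysomes with 3 or more ribosomes. The library names carry "Scr" for the control. Genotype label and pool together make 4 groups of 2 libraries, 1 per line label. The labels name no separate cultures within a line, so p-values measure only the spread between these libraries. With 1 library per line label in each group, that spread is how far group differences disagree between the line labels. It may be technical.

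The labels were checked before use. OGFOD1 was lower in the libraries labelled OE: under the Molm13 label it stood at 33.0 (light) and 44.4 (heavy) CPM (a count per 1000000 counts of its library, scaled for library composition) in the control and at 16.7 and 25.3 CPM in the OE gradient, and under the U937 label at 49.8 and 60.2 against 10.1 and 12.4 CPM. Every genotype difference below therefore goes by labels that the target gene contradicts. The line labels did not separate the libraries: edgeR called 0 of 24289 genes between them (2862 at an unadjusted p under 0.05, 303 called by DESeq2), and the kinase gene FLT3 lay between 85.3 and 170 CPM under the Molm13 label and between 93.6 and 202 CPM under the U937 label. "Molm13" and "U937" are thus used as label names. All 12 myeloid leukaemia markers had counts in every library (1302 to 4961 CPM in sum, before scaling), and the 5 erythroid markers summed to 0.039 to 0.187 CPM. Total counts ran from 25741930 to 89373133, and the lowest count of any of the 78 genes in any library was 521. The Molm13 control light library stood apart: mitochondrially encoded genes took 2.49% of its counts, against 19.8% to 23.3% in the other 3 light pools and 0.360% to 0.941% in the heavy pools. CPM is a share of a library's RNA, so fewer cells, less RNA per cell and a smaller pool cannot be told apart.

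The 78 mRNAs were well expressed, and their levels differed widely between genes. Median CPM over the genes was 120.6 in the Molm13 control light library and 120.8 in its heavy partner, 47.8 and 133.8 in the Molm13 OE light and heavy libraries, 68.1 and 178.8 in the U937 control pair, and 46.3 and 114.0 in the U937 OE pair. So 3 gradients had a low light pool and a high heavy pool, and the Molm13 control gradient had nearly equal ones. Per kilobase of exons (RPKM, over the union of all annotated exons, which can understate a gene with long minor isoforms), the median over libraries ranged from 6.59 to 314. MRPL14, a conserved protein of the large subunit, was highest (154 to 491 CPM over libraries), followed by MRPL51 at 244, MRPS34 at 198 and MRPL18 at 195 RPKM. NCAPD2 on the opposite strand covers 31.3% of the exon bases of MRPL51, which makes its level uncertain. The lowest were MRPL23, at the exit tunnel, at 6.59, MRPL42 at 8.91, MRPS31 at 9.77 and MRPL46 at 10.1 RPKM. Levels per length thus spanned 47.6-fold between genes of 1 particle.

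**Figure D1:**
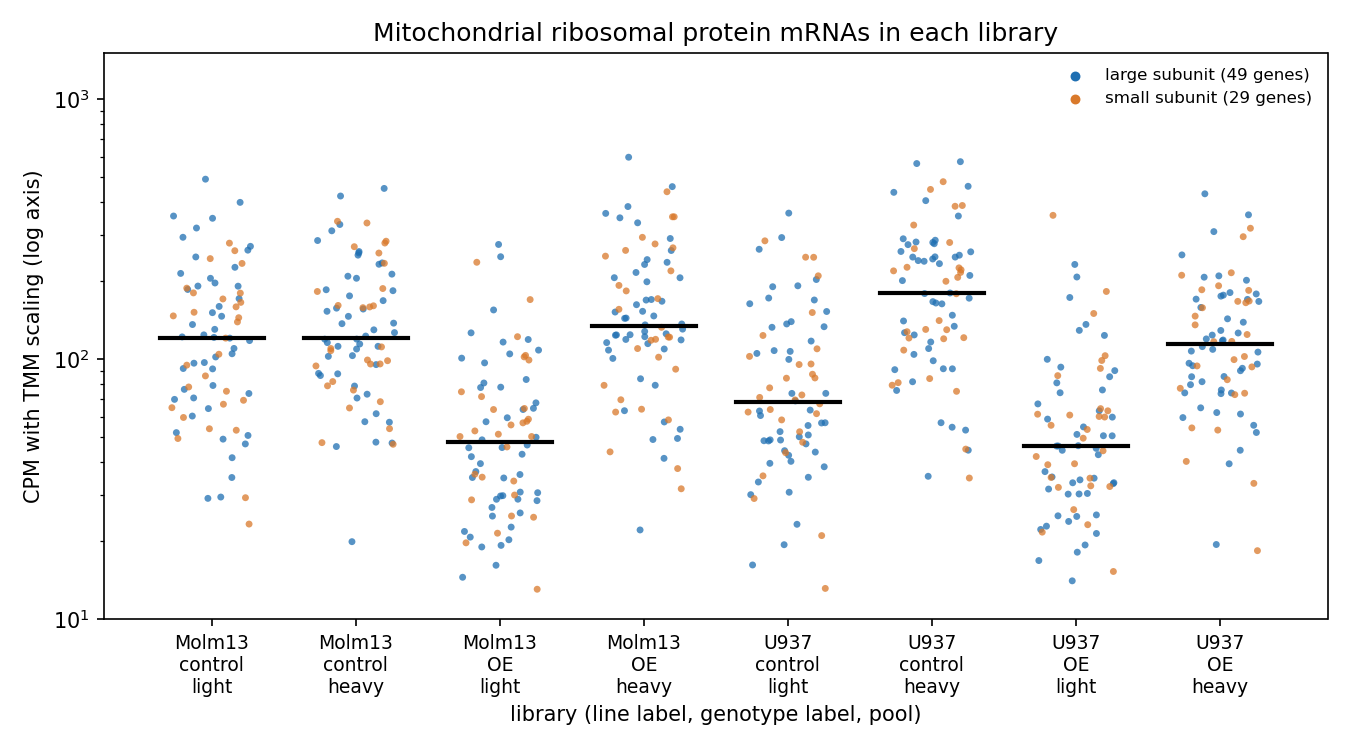
CPM (log axis) of the 78 mitochondrial ribosomal protein mRNAs in each of the 8 libraries, large subunit in blue and small subunit in orange, with a black bar at the median. The medians of the Molm13 OE, U937 control and U937 OE gradients are lower in the light than in the heavy pool, while those of the Molm13 control gradient are 120.6 and 120.8 CPM.

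Comparing heavy with light pools asks which mRNAs sit on large polysomes. Most of the mitochondrial ribosomal protein mRNAs were concentrated in the heavy pools. With edgeR (adjusted p under 0.05) 51 of 78 rose, where 15.8% of all tested genes did, and 1 fell, where 12.8% did. Of protein-coding genes 21.8% rose and 10.6% fell. The 78 genes also stood at higher levels, with a median of 120.8 CPM in the Molm13 control heavy library against 14.6 for protein-coding genes. The shares were not matched for level, which bears on how easily a gene is called. The fit has no term for the gradient, so the pools of a gradient enter as independent libraries. Their correlation, estimated with limma voom, was -0.258, and a negative value makes the error of heavy minus light larger than assumed. The median log2 fold change was 1.10, against -0.04 over all tested genes and 0.15 over 13575 protein-coding genes, and 71 of 78 values were positive. In 50 genes the heavy library was the higher one in 4 of 4 gradients (20.9% of all genes), and in 24 the 4 heavy libraries lay above all 4 light ones (9.12% of all genes); 0 of 78 had the reverse order without overlap (9.81% of all genes).

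The steepest shift was that of MRPL28, a large subunit protein with a bacterial counterpart (ENSG00000086504, chromosome 16, 366969 to 371289, minus strand, GRCh38). It had 185 and 311 CPM in the light and heavy pools of the Molm13 control gradient, 36.9 and 349 in the Molm13 OE gradient, 48.5 and 275 in the U937 control gradient and 35.2 and 170 in the U937 OE gradient. All heavy libraries but that of the U937 OE gradient exceeded every light one. On the log2 scale it rose by 2.13 (edgeR, SE 0.34, adjusted p = 0.00127). MRPL55 (2.04), MRPL24 (2.04) and MRPL2, which lies near the peptidyl transferase centre (2.02), followed.

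Measured by the smallest p, the leading genes were 5 others. MRPL16, a large subunit protein close to the tRNA sites, rose by 1.84 (log2, edgeR, SE 0.28, adjusted p = 0.00105), with 96.9, 24.9, 48.8 and 23.7 CPM in the light pools of the Molm13 control, Molm13 OE, U937 control and U937 OE gradients and 146, 162, 178 and 109 CPM in the heavy pools. The heavy values all lay above the light ones. MRPS23, a mitochondria-specific small subunit protein, rose by 1.59, MRPL35 by 1.61 and MRPL27 by 1.97. MRPS28 rose by 1.91, though a same-strand transcript covers 35.8% of its exon bases, which makes its counts uncertain.

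A few members of the group went the other way or stayed level. MRPS27, a small subunit protein with pentatricopeptide repeats that binds RNA (ENSG00000113048, chromosome 5, 72219409 to 72320646, minus strand), fell by 1.25 (log2, edgeR, SE 0.31, adjusted p = 0.00941). Its light pools held 78.0, 235, 284 and 356.5 CPM in the Molm13 control, Molm13 OE, U937 control and U937 OE gradients, and its heavy pools 81.8, 69.7, 120 and 94.0 CPM. Light exceeded heavy in 3 of 4 gradients, and the Molm13 control light library was the exception with a value near that of the heavy pools. The fall was not called without the Molm13 OE light library (adjusted p = 0.0609) or without the U937 OE heavy library (adjusted p = 0.0967).

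The other low values belonged to MRPL57 and MRPL33, both short proteins of the large subunit, of 102 codons (chromosome 13, 21176645 to 21179084, plus strand) and 65 codons (chromosome 2, 27771717 to 27988087, plus strand). MRPL57 had 347, 247, 364 and 207 CPM in the light and 109, 128, 280 and 174 CPM in the heavy pools, and its change was -0.79 (edgeR, SE 0.32, adjusted p = 0.0764). MRPL33 had 204, 275, 136 and 231 CPM in the light and 78.7, 152, 116 and 209 CPM in the heavy pools, with -0.65 (SE 0.29, adjusted p = 0.109). These were the 2 genes that were lower in the heavy pool in 4 of 4 gradients (21.9% of all genes were). Neither passed the threshold in this fit, but both did with DESeq2 (adjusted p = 0.0179 and 0.0328) and with upper-quartile scaling (0.0336 and 0.0432); BABAM2 shares 21.1% of MRPL33's exon bases. MRPL45, whose protein sits by the exit tunnel at the inner membrane, was at -0.20 and MRPS24 at -0.08, both far from the threshold; a readthrough gene shares 23.2% of the exon bases of MRPS24. Values near the threshold were MRPS35 just inside (0.69, adjusted p = 0.0441) and MRPS18C just outside (0.77, adjusted p = 0.0532).

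**Figure D2:**
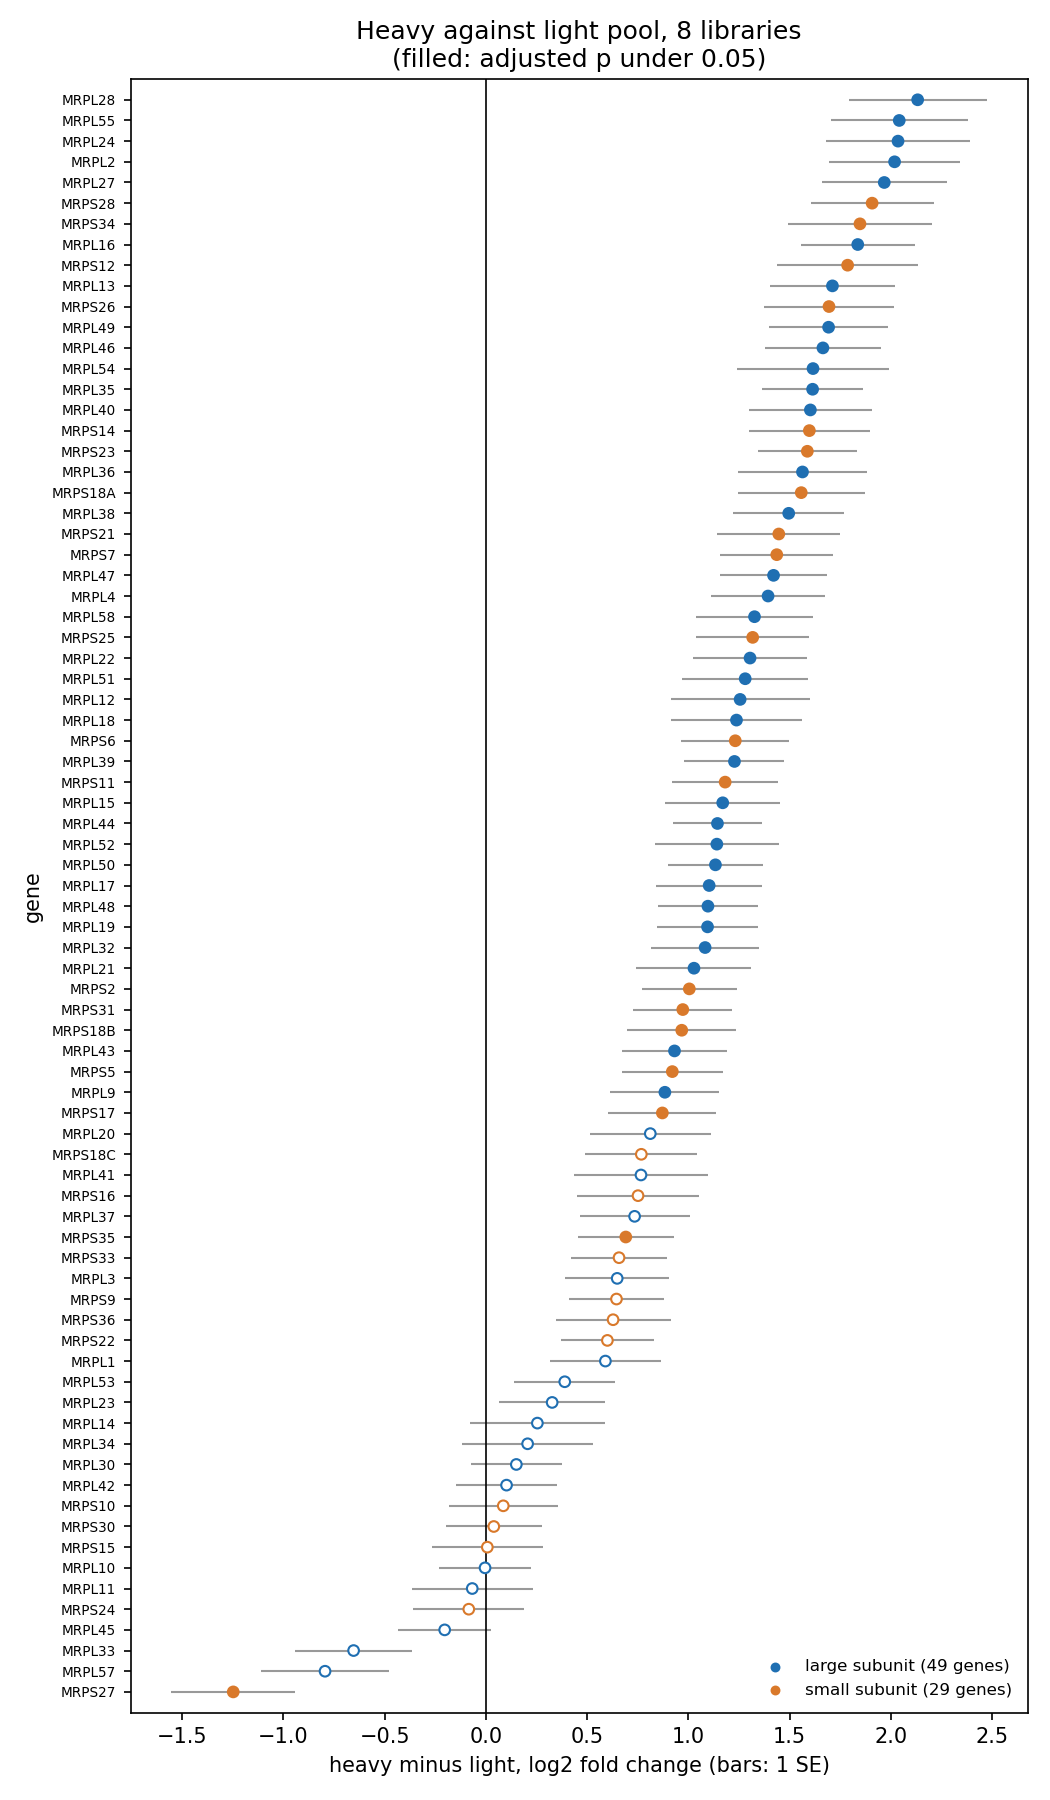
Log2 fold change of heavy against light pools for each of the 78 genes over 8 libraries, sorted, with bars of 1 SE; filled points passed an adjusted p of 0.05, blue is large and orange small subunit. The 51 genes that rose reach from 0.69 (MRPS35) to 2.13 (MRPL28), and MRPS27 at -1.25 is the filled point to the left of 0.

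The genes named by rule whatever their values fell on both sides. MRPS12, the mitochondrial counterpart of RPS23 at the decoding centre, rose by 1.79 (edgeR, SE 0.35, adjusted p = 0.0030), from 261, 56.8, 95.6 and 60.1 CPM in the light to 255, 439, 386 and 295 CPM in the heavy pools of the Molm13 control, Molm13 OE, U937 control and U937 OE gradients. Its rise was thus seen in 3 gradients and not in the Molm13 control one. Of the 3 paralogs that share the MRPS18 name, MRPS18A rose by 1.56 and MRPS18B by 0.97 while MRPS18C was at 0.77; RSPH9 on the opposite strand covers 47.0% of MRPS18A and ABRAXAS1 40.2% of MRPS18C, so those counts are uncertain. MRPS30, which structures place in the large subunit in spite of its name, was near 0 (0.04, and -0.15 with upper-quartile scaling). MRPS36, now known as a subunit of the 2-oxoglutarate dehydrogenase complex, was at 0.63 (adjusted p = 0.115). MRPL12, the stalk protein of the large subunit, rose by 1.26 (adjusted p = 0.016), with 68.2% of its exon bases shared with a same-strand gene. When 1 library was left out, MRPL12 lost its call in 4 of 8 fits (without Molm13 OE heavy, U937 control heavy, U937 OE light or U937 OE heavy, adjusted p = 0.0587 to 0.106), and so did MRPS18B (without Molm13 OE light, Molm13 OE heavy, U937 control heavy or U937 OE heavy, adjusted p = 0.0682 to 0.121).

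The shift to the heavy pool was not equal in all gradients. The median heavy minus light difference over the 78 genes was 0.30 in the Molm13 control gradient, 1.57 in the Molm13 OE gradient, 1.17 in the U937 control gradient and 1.28 in the U937 OE gradient. At least 1 on the log2 scale was reached by 3 genes in the Molm13 control gradient (8.18% of all genes), 56 in the Molm13 OE gradient (24.7%), 53 in the U937 control gradient (19.6%) and 47 in the U937 OE gradient (20.9%). A difference of -1 or below was found for 4 genes in the Molm13 control gradient (14.7% of all genes), MRPL57, MRPL14, MRPL33 and MRPL34, and for MRPS27 in the Molm13 OE (26%), U937 control (20.7%) and U937 OE (19.7%) gradients. In all 3 gradients other than Molm13 control, a set chosen after the mitochondrial share was seen, 69 of 78 genes were higher in the heavy pool, against 33.6% of all genes. The part of the low mitochondrial share of the Molm13 control light library in these values was not tested. Without that library the median was 1.22. Of the single libraries left out, that of the Molm13 OE heavy pool lowered the count of genes that rose the most.

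The order of the genes recurred between gradients that share no library. Across the 78 genes, heavy minus light in the Molm13 OE gradient correlated with that in the U937 OE gradient at Pearson r = 0.911 (Spearman rho 0.908) and with that in the U937 control gradient at r = 0.896, and the 2 U937 gradients correlated at r = 0.848. Over 13575 protein-coding genes, which were not matched to the 78 for level, the same correlations were 0.707, 0.731 and 0.71. With the Molm13 control gradient, r across the 78 genes was between 0.288 and 0.474. Genes are not independent replicates and the libraries share their scaling, so these are descriptions with no test. MRPL28 and MRPL55 were among the 6 highest and MRPS27, MRPL57 and MRPL33 among the 5 lowest genes of each of these 3 gradients.

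**Figure D3:**
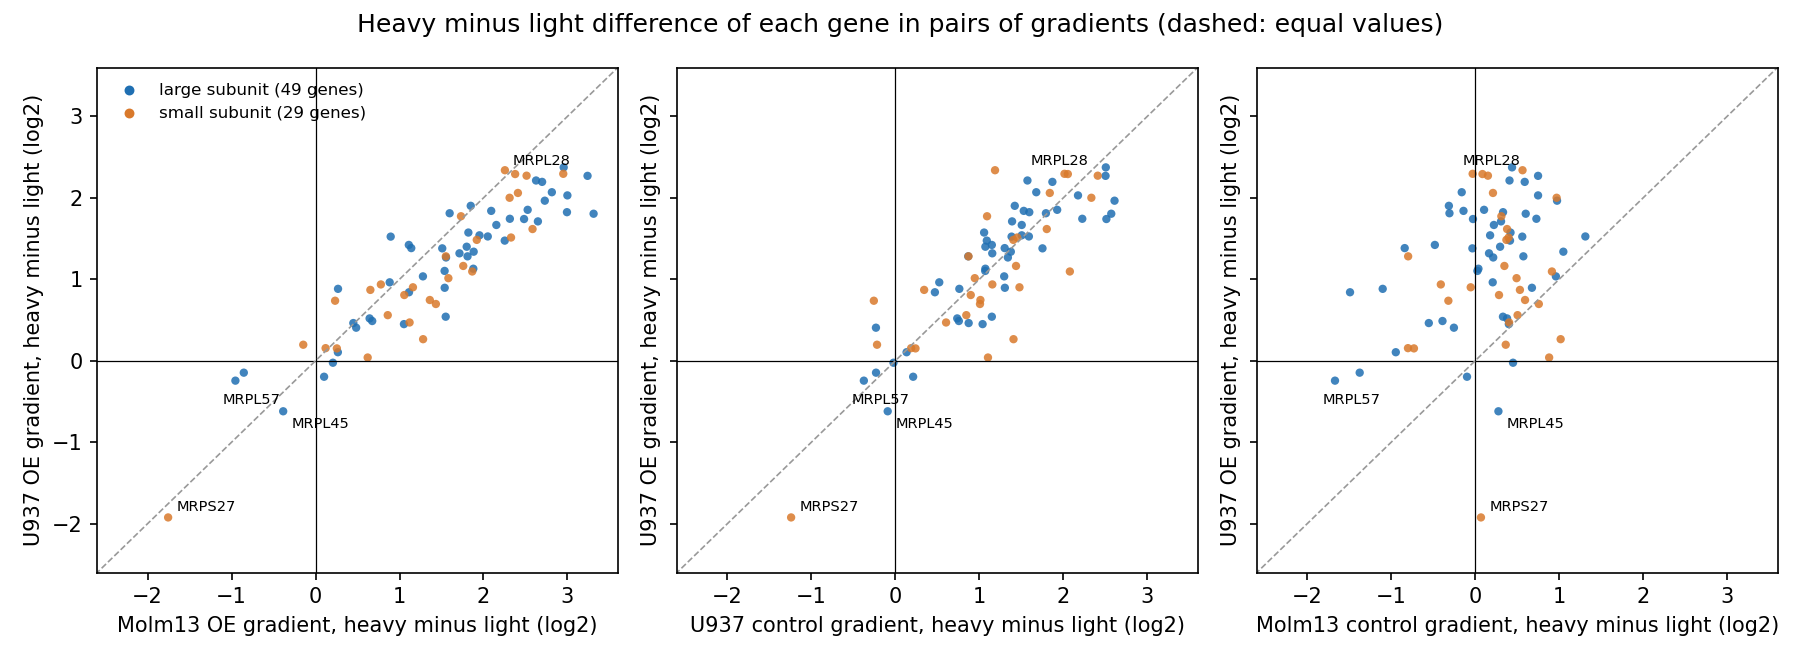
Heavy minus light difference in log2 CPM of each of the 78 genes, with the U937 OE gradient on the vertical axes and the Molm13 OE, U937 control and Molm13 control gradients on the horizontal axes (large subunit blue, small orange, dashed line for equal values). Points follow the dashed line in the first 2 panels (r = 0.911 and 0.848) and spread away from it in the third (r = 0.288).

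Within the genotype labels, the control pair of gradients gave no call: 0 of 78 genes passed with edgeR (0.206% of all genes rose and 0.873% fell), although 32 had an unadjusted p under 0.05 (19.1% of all genes), all of them positive, DESeq2 called 14 (7.81% of all genes in either direction), and the median was 0.75. Under the OE label 46 rose (12.9% of all genes) and 1, MRPS27, fell (8.1% of all genes), with a median of 1.43. This count was 0 when the Molm13 OE light, Molm13 OE heavy or U937 OE heavy library was left out, and 29 (28 that rose and 1 that fell) without the U937 OE light library. The interaction, which asks whether the shift differs between genotype labels, called 0 of 78 with edgeR (0.0% of all genes), with 9 at an unadjusted p under 0.05 (5.9% of all genes) and 0 by DESeq2; its median was 0.67, and 71 of 78 values were positive. The largest interaction by p was that of MRPS23 (1.42, SE 0.48, adjusted p = 0.791), then MRPL40 (1.68), MRPL46 (1.45), MRPL38 (1.33, with 37.5% of its exon bases shared) and MRPS12 (1.65); on the negative side MRPS27 was at -1.17, MRPS9 at -0.68, MRPL45 at -0.61, MRPS31 at -0.46 and MRPL30 at -0.11. The values moved with the Molm13 control light library, whose part was not tested. With it left out the control label had a median of 1.07, and the interaction median was 0.33. Leaving out the U937 control light library instead gave an interaction median of 1.01.

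Large and small subunit mRNAs moved much alike between the pools. Of the 49 large subunit genes 33 rose, with a median of 1.14. Of the 29 small subunit genes 18 rose and 1, MRPS27, fell, with a median of 0.97. The median of the large minus that of the small subunit was 0.17, and by gradient it was -0.14 (Molm13 control), 0.28 (Molm13 OE), 0.20 (U937 control) and 0.45 (U937 OE), so its sign was not the same in all gradients. Counting MRPS30 and MRPS18A with the large subunit, as structures do, left the difference at 0.17. Proteins with a bacterial counterpart (46 genes, 30 rose, median 1.10) and mitochondria-specific ones (31 genes, 21 rose, median 1.13) had close values.

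Coding length, which limits how many ribosomes an mRNA can carry, was set beside the shift. Over the 78 genes, of 65 to 439 codons, the Pearson correlation of log2 codons with the heavy against light fold change was 0.021 (Spearman -0.023), given as a description. By subunit it was 0.293 in the 49 large and -0.372 in the 29 small subunit genes (Spearman 0.173 and -0.293), of opposite sign. The 26 genes of 65 to 159 codons had a median of 0.84 with 13 that rose, the 26 of 161 to 250 codons 1.32 with 22, and the 26 of 251 to 439 codons 0.94 with 16; protein-coding genes of the same lengths had medians of 0.32, 0.36 and 0.24, and 26.9%, 30.3% and 25.8% of them rose. In the Molm13 control gradient alone the correlation was 0.478, against 0.287 over protein-coding genes there and -0.019 to -0.157 for the 78 genes in the other 3 gradients.

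Genes of the same organelle were set beside them. Over all tested genes 15.8% rose and 12.8% fell. The nuclear subunits of oxidative phosphorylation, which join the products of the mitochondrial ribosome, had nearly the same profile: 44 of 76 rose and 2 fell (UQCR11 of complex III, -2.22, and NDUFC1 of complex I, -1.12), with a median of 1.11. Of 30 genes listed as assembly factors of the mitochondrial ribosome 16 rose (53.3%) and 3 fell (10.0%), with a median of 0.97. The list holds LYRM9 and MCAT, which are not established assembly factors. Those of smallest p were the GTPase MTG2 (1.69), the pseudouridine synthase TRUB2 (1.87) and the rRNA methyltransferase MRM1 (1.65), while the GTPase NOA1 (-1.08), METTL15 (-0.87) and LYRM9 (-1.63) fell. Of 19 mitochondrial translation factors 8 rose (42.1%) and 2 fell (10.5%), with a median of -0.06. In both of these lists the share that fell was below that of all genes. The elongation factor TSFM (1.98), the ribosome rescue factor MTRFR (1.79) and the translational activator TACO1 (1.46) rose, and the release factor MTRF1L (-1.33) and the inner membrane insertase OXA1L (-0.91) fell. Among 5 proteins of the mitochondrial ribosome under other symbols, AURKAIP1 (1.49) and GADD45GIP1 (1.52) rose, while DAP3 (-0.06), CHCHD1 (-0.05) and PTCD3, another pentatricopeptide repeat protein (-0.50, adjusted p = 0.137), did not pass. The transcription and biogenesis regulators had 4 of 13 that rose (median 0.54): TFAM (1.25), POLRMT (1.06), PPRC1 (0.94) and ESRRA (1.05). Members that fell, and ESRRA, were named after their values were seen.

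In the fit over all 8 libraries the cytosolic ribosomal protein mRNAs ran the other way. Of 86 genes 4 rose (4.65%: RPL26L1, RPS26, FAU and RPL27) and 20 fell (23.3%), with a median of -0.54. By gradient their median was 0.01 (Molm13 control), -0.64 (Molm13 OE), -0.21 (U937 control) and -1.19 (U937 OE). It was thus near 0 in the Molm13 control gradient. The mitochondrial ribosome's own RNAs, which are not translated on these polysomes, were lower in the heavy pools: MT-RNR2, the large subunit rRNA, by a log2 fold change of -5.76 and MT-RNR1, that of the small subunit, of -3.48. All 13 mitochondrially encoded mRNAs fell, with a median of -3.55. The mRNAs of its proteins and its rRNAs thus differed between the pools in opposite directions.

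**Figure D4:**
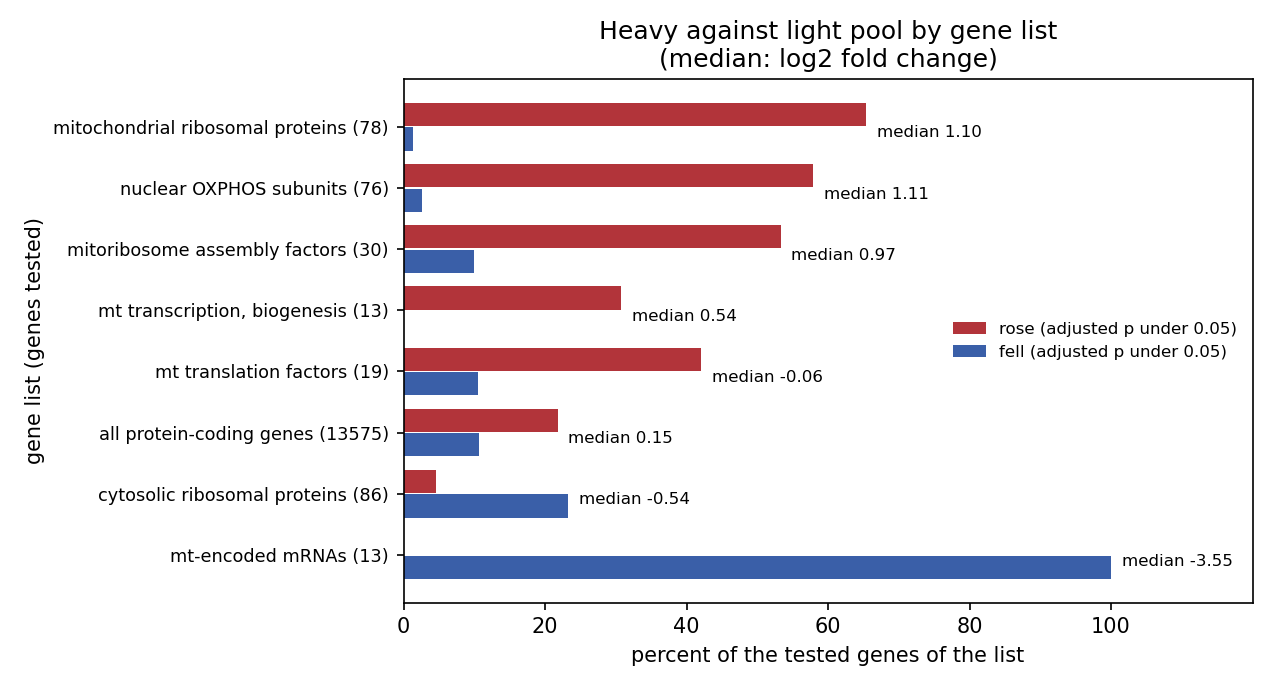
Percent of the tested genes of each list that rose (red) or fell (blue) in heavy against light pools at an adjusted p under 0.05, with the number tested in brackets and the median log2 fold change beside the bars. Mitochondrial ribosomal proteins (51 of 78) and nuclear oxidative phosphorylation subunits (44 of 76) have the longest red bars, and cytosolic ribosomal proteins and mitochondrially encoded mRNAs have longer blue ones.

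Comparing the genotype labels asks how the OE label moves these mRNAs. Over both pools most values were lower in the libraries labelled OE: 73 of 78 were negative and the median log2 fold change was -0.66, against -0.05 over all genes. With edgeR 2 fell, which is 2.56% of the 78 against 2.36% of all genes, and 0 rose (2.01% of all genes). The number that fell was thus about the share of all genes. At an unadjusted p under 0.05 there were 44 (22.2% of all genes), 43 of them negative. DESeq2 called 27 that fell (10.9% of all genes in either direction). These calls treat the pools of a gradient as independent. Summing the counts of each gradient over its pools left 0 calls, and so did the fit without a block for the line label. A limma voom fit with a correlation within gradients called 31 that fell and 1 that rose (13.1% of all genes in either direction). That correlation was estimated at -0.258. A negative value lowers the error of a difference taken over both pools, so this fit is no stricter than one with independent pools. Leaving out 1 library at a time changed the count of edgeR calls in both directions. It removed the calls when the library was any of those labelled OE or the U937 control heavy one. Marker genes of the cells also differed between the genotype labels: the myeloid genes ITGAM (1.79) and MPO (-1.01) and the keratin genes KRT18 (-1.45) and KRT8 (-1.35) passed the threshold. The sum of 4 T cell markers, 1 of them tested, went from 33.9 (control) to 16.2 CPM (OE) in the Molm13 light pair. It went from 14.8 to 65.0 in the Molm13 heavy, 1.30 to 23.5 in the U937 light and 6.67 to 128 in the U937 heavy pair. In the Molm13 control heavy, Molm13 OE light and U937 control light libraries only 1 of the 4 had a count. The part of this in the values was not tested.

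The genes that fell were MRPL41 and MRPL47. MRPL41, a mitochondria-specific protein of the large subunit (ENSG00000182154, chromosome 9, 137551199 to 137552555, plus strand), went from 213 CPM (control) to 45.6 CPM (OE) in the light and from 119.1 to 100.5 CPM in the heavy pools labelled Molm13. In those labelled U937 it went from 105 to 36.9 and from 259 to 96.3 CPM. The 4 libraries labelled OE all lay below the 4 controls, as did those of MRPL11 and of no other of the 78 genes. That is no more than the share of all genes with this order (2.96%). In 0 of the 78 genes all OE libraries lay above the controls (3.43% of all genes). The difference was -1.45 (log2, edgeR, SE 0.33, adjusted p = 0.0323) with a lower value in each of 4 pairs, and it was -1.05 without the Molm13 control light library.

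MRPL47, a large subunit protein with a bacterial counterpart beside the exit tunnel (ENSG00000136522, chromosome 3, 179588285 to 179604654, minus strand), went from 121 to 45.7 CPM in the light and from 251 to 168 CPM in the heavy pools labelled Molm13, and from 107 to 46.4 and from 277 to 117 CPM in those labelled U937. Each OE library was below its control partner, while the OE heavy libraries overlapped the control light ones. Its difference was -1.10 (log2, edgeR, SE 0.26, adjusted p = 0.0358). Leaving out 1 library at a time, MRPL41 lost its call in 5 of 8 cases and MRPL47 in 6 of 8, with adjusted p up to 0.232 and 0.296.

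Next by p, and just outside the threshold, were MRPL12 (-1.28, adjusted p = 0.0501 with edgeR, uncertain by its overlap), MRPL4 (-1.05), and MRPL20 (-1.09), all large subunit proteins with bacterial counterparts. On the positive side MRPL33 was at 0.73 (SE 0.29, adjusted p = 0.156). It went from 204 to 275 CPM in the light and from 78.7 to 152 CPM in the heavy pools labelled Molm13, and from 136 to 231 and from 116 to 209 CPM in those labelled U937. It was the 1 gene that was higher in 4 of 4 pairs (11% of all genes), where 22 of the 78 were lower in 4 of 4 (14.4% of all genes). MRPL10 (0.25), MRPS27 (0.30), MRPL45 (0.22) and MRPS36 (0.01, and -0.04 without the filter on low counts) were the remaining positive values.

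Promoter stretches were chosen for holding a motif, in order of p over both pools, because mitochondrial ribosomal protein genes are known as targets of ETS factors such as GABPA and of NRF1 and YY1. RefSeq promoters (GRCh38.p14) were matched for 69 of the 78 genes, and the 250 bases before the start were searched on both strands. The letters CCGGAAG, a core of ETS sites, were found in 33.3% of them against 11.9% of 15300 protein-coding promoters, and the shares were 33.3% in each subunit. TGCGCA, from the NRF1 site and the same on both strands, was found in 18.8% against 9.14%, and AAGATGG, from the YY1 site, in 10.1% against 3.32%. CCGGAAG ends in the letters AAG with which AAGATGG begins, so these matches can overlap. For 17 of the 78 genes (21.8%) a protein-coding gene on the other strand starts within 1000 bases upstream, against 7.4% of protein-coding genes. Opposite-strand starts downstream of a gene's own start were not counted. MRPL47 shares its start region with NDUFB5, a respiratory complex I subunit. MRPL41, with the smallest p, and MRPL4 held none of the motifs and are not shown; MRPL47, MRPL12 and MRPL20 are the first 3 that held one, and nothing about their response is read from it. A match is a description of letters, not a bound site. In the stretches below, 60 bases each on the gene's strand, capitals mark the ETS core in MRPL47 and MRPL20 and the NRF1 core in MRPL12; they lie at chr3:179604645-179604704 (minus), chr17:81703273-81703332 (plus) and chr1:1407294-1407353 (minus).
MRPL47: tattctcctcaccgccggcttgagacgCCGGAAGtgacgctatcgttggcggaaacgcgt
MRPL12: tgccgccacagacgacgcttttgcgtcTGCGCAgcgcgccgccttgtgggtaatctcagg
MRPL20: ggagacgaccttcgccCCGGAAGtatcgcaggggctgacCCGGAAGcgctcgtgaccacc

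The genotype labels were also compared within each pool. In the light pools the median was -0.98 and 73 of 78 values were negative; edgeR called 0 (0.0% of all genes in either direction), with 49 at an unadjusted p under 0.05 (14.8% of all genes), all negative, and DESeq2 called 29 that fell (3.83% of all genes in either direction). MRPL41 (-1.94), MRPL4 (-1.57), MRPL16 (-1.53), MRPL58, a peptide release factor built into the large subunit (-1.59), and MRPS23 (-1.31) had the smallest p, and MRPS27 (0.88), MRPL45 (0.53), MRPL33 (0.57), MRPL10 (0.30) and MRPS9 (0.20) were positive. Without the Molm13 control light library the median was -0.63. In the heavy pools the median was -0.31 with 61 of 78 negative, and edgeR called 0 (0.00412% of all genes fell and 0.0% rose), with 2 at an unadjusted p under 0.05 (15.1% of all genes) and 0 by DESeq2 (4.09%). MRPL47 (-0.90), MRPS31 (-0.74), MRPL35 (-0.73), MRPL41 (-0.96) and MRPS33 (-0.65) had the smallest p among negative values, and MRPL33 (0.89), MRPS14 (0.47), MRPL10 (0.20), MRPS36 (0.23) and MRPL42 (0.20) among positive ones. Without the U937 control heavy library the heavy pool median was 0.04, so its sign rests on that library.

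Within the line labels, 1 library stands on each side and no test was made. In light pools the median difference, OE minus control, was -1.32 under the Molm13 label, with 52 genes at -1 or below (19.4% of all genes) and 1, MRPS27, at 1 or above (13.8%), and -0.72 under the U937 label, with 18 (13.3%). In heavy pools it was 0.12 under the Molm13 label, with 0 genes at -1 or below (15.6%) and 0 at 1 or above (13.4%), and -0.68 under the U937 label, with 12 (10.9%). The heavy pools thus differed in sign between the line labels, and this was not tested. Under the U937 label 7 genes were lower by at least 1 in both pools (4.41% of all genes): MRPL11, MRPL12, MRPL20, MRPL41, MRPL47, MRPS7 and MRPS34. Under the Molm13 label there were 0 (2.59%). The Molm13 light pair contains the library with a mitochondrial share of 2.49%, and its part in this was not tested.

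**Figure D5:**
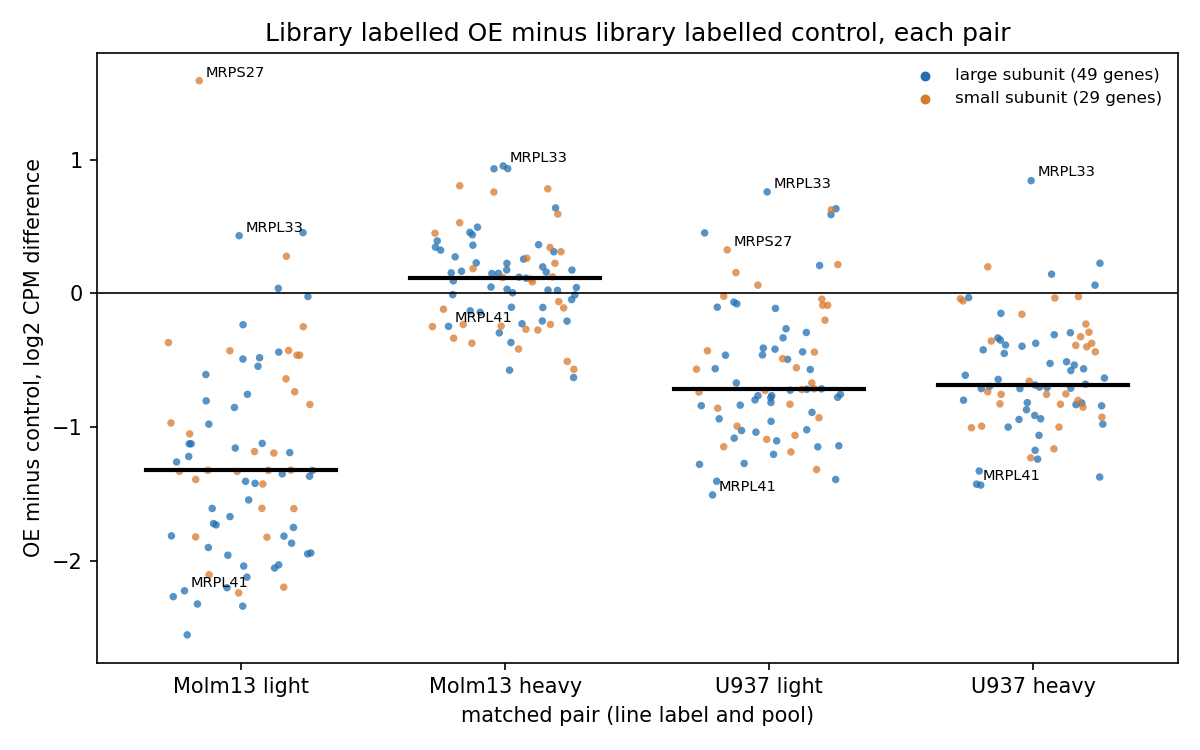
Log2 CPM difference of the library labelled OE minus that labelled control for each of the 78 genes in the 4 matched pairs (large subunit blue, small orange, black bar at the median). Medians are -1.32, 0.12, -0.72 and -0.68 from left to right; MRPL33 is above 0 and MRPL41 below 0 in each pair.

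By subunit, the median over both pools was -0.67 for large subunit genes, 2 of 49 of which fell, and -0.60 for small subunit genes, 0 of 29 of which fell (with edgeR). The difference of the medians was -0.31 in the light pool, and -0.24 when MRPS30 and MRPS18A were counted as large; in the heavy pool it was -0.02 and changed sign to 0.03 with that count. Proteins with a bacterial counterpart had a median of -0.72 and mitochondria-specific ones of -0.52. Of the related lists few genes passed, and no list was tested as a whole. Over all tested genes 2.36% fell. The shares were 2.63% of oxidative phosphorylation subunits, 16.7% of assembly factors, 10.5% of translation factors and 15.4% of regulators. Nuclear oxidative phosphorylation subunits had a median of -0.68 with 2 of 76 that fell (ATP5MC1 of the ATP synthase, -1.54, and NDUFAB1, -1.17, which the assembly factor list also holds). Of the 30 genes listed as assembly factors 5 fell (median -0.56). They were led by MPV17L2 (-1.27), MRM1 (-1.09) and MCAT (-1.11, not an established assembly factor), with NDUFAB1 and DHX30 (-0.95). Of 19 translation factors TACO1 (-0.95) and PDF (-0.92) fell, and of 13 regulators the mitochondrial RNA polymerase POLRMT (-1.16) and the coactivator PPRC1 (-1.29) fell. Those of the cytosolic ribosome stood at a median of -0.28, where 1 of 86, RPL26L1, fell, and the mitochondrially encoded mRNAs at -0.13 with 0 of 13 called. The rRNAs MT-RNR2 (0.79) and MT-RNR1 (0.08) were positive and not called.

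Between the line labels no difference was called: 0 of 78 genes with edgeR (0.0% of all genes), 2 at an unadjusted p under 0.05 (11.8%) and 0 by DESeq2 (1.25%). MRPS27 was at 0.86 (SE 0.31, adjusted p = 0.335), U937 minus Molm13, and higher in 4 of 4 pairs together with MRPL3, MRPL30 and MRPL42 (11% of all genes). MRPS10 (0.52) and MRPL57 (0.40) were the other positive values of small p. MRPL28 was at -0.80 (SE 0.34, adjusted p = 0.395) and lower in 4 of 4 pairs together with MRPL22, MRPL44 and MRPS22 (9.21% of all genes), and MRPL24 (-0.74), MRPS18A (-0.64), MRPL49 (-0.59) and MRPL55 (-0.66) followed. The median over the 78 genes was -0.15, made of pair medians of -0.63 (control light), 0.33 (control heavy), 0.02 (OE light) and -0.36 (OE heavy). It was 0.03 when either of the control light libraries was left out. Leaving out 1 library of a group takes its partner out of the line comparison too, so these are not separate results.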

How the data were processed

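Raw read counts for 78932 Ensembl IDs in 8 libraries were deposited as 1 table. Per the submitters' processing notes the tools were cutadapt, STAR and featureCounts on GRCh38. Tool versions, the gene models used for counting and the strandedness option were not given in the sources used here. Per the labels' protocols the kit was Smart-seq, and such libraries carry no strand information. Symbols were found for 42179 IDs, and positions and coding lengths (APPRIS principal transcripts, in place of the RefSeq proteins that had been planned) are from GENCODE 29. TALAM1 held 99.95% to 99.98% of MALAT1's counts, so reads in overlapping genes count for both. The 78 genes and all lists were chosen with earlier results of these data known, and the roles of the genes are textbook knowledge.

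Counts were tested in R 4.3.3 with the quasi-likelihood test of edgeR 4.0.16 (TMM scaling, filterByExpr, group plus line label, 3 residual degrees of freedom, Benjamini-Hochberg over 24289 genes, threshold 0.05). The biological coefficient of variation was 0.359. CPM and RPKM were computed here; log2 CPM used a prior count of 2, and SE comes from the F statistic. Within matched pairs a size rule of 1 on the log2 scale replaced the test. The line label, which the labels give to 1 library per group, is the block; deviations from group means correlated between groups at 0.0169 to 0.338. Alternatives were upper-quartile scaling, totals without mitochondrially encoded genes, no filter, DESeq2 1.42.0, no block, each library left out, gradients summed, and limma 3.58.1 voom with the gradient as a block. Named genes were up to 5 per direction by smallest p in each comparison, 4 at each end of level and of heavy minus light, a fixed set (the MRPS18 paralogs, MRPS30, MRPS36, MRPS12, MRPL12), and up to 3 per related list. The scripts were tested on simulated data.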

Additional observations from a re-analysis of the deposited data

Results flagged for a closer look

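The median OE minus control difference of the 78 genes in the heavy pool was 0.12 under the Molm13 label and -0.68 under the U937 label, 0.80 apart and of opposite sign; each is 1 pair of libraries, and the difference was not tested. In the same way, OE minus control had opposite signs in the light and heavy pools under both line labels in MRPS27, MRPS14 and MRPL42. For MRPS27 the values were 1.59 and 0.33 in the light and -0.23 and -0.36 in the heavy pools (Molm13, U937), a heavy minus light contrast of -1.25. For MRPS14 they were -1.39 and -0.02 against 0.81 and 0.20 (contrast 1.21), and for MRPL42 -0.48 and -0.49 against 0.26 and 0.14 (contrast 0.69).

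Heavy minus light had opposite signs between the genotype labels in MRPL42, at -0.25 and -0.23 in the control gradients and 0.48 and 0.41 in the OE gradients (a difference of 0.69), and in MRPS10, at -0.32 and -0.26 against 0.23 and 0.74 (a difference of 0.77). In MRPL30 it had opposite signs between the line labels, at 0.45 and 0.21 under Molm13 and -0.02 and -0.02 under U937 (a difference of -0.35). Between the line labels the difference was not tested. Between pools or genotype labels it is the interaction of edgeR, which was not called in any of them (adjusted p = 0.791 for MRPS27 and MRPS14, 0.811 for MRPL42 and 0.812 for MRPS10). In all 1 of 78 genes had opposite signs between line labels, 2 between genotype labels and 3 between pools. These patterns were not counted over all tested genes, so the numbers cannot be set against a background.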

How the results depend on the processing

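The share of all genes called is given above only for the main fit, DESeq2 and limma voom. Counts under the other settings show how far the calls depend on the setting, without a comparison with other genes. In heavy against light 30 genes rose in all 14 settings, and with no replicate block 50 rose and 1 fell. Leaving out 1 library gave 32 (without Molm13 OE heavy) to 59 calls. For the genotype labels over both pools, 2 calls became 21 without the filter on low counts, 27 with DESeq2, 0 with no replicate block for the pairing by line label, 0 with gradients summed and 32 with limma voom, and leaving out 1 library gave 0 to 38. In the light pool, 0 calls became 15 without the filter and 29 with DESeq2, with 0 to 36 when 1 library was left out (36 without U937 control light). The interaction had 0 to 9 calls when 1 library was left out. The control label had 10 heavy against light calls without the filter, 14 with DESeq2 and 0 to 31 when 1 library was left out; these alternatives were chosen after seeing the data. The OE label had a median of 1.17 with upper-quartile scaling and 0 to 56 calls when 1 library was left out: 0 without Molm13 OE light, Molm13 OE heavy or U937 OE heavy, and 29 without U937 OE light. When 1 library was left out, the heavy pool median ran from -0.67 to 0.042 and the line label median from -0.33 to 0.027. With MRPS30 and MRPS18A as large, large minus small was -0.24 in the light and 0.031 in the heavy pool. Upper-quartile scaling moved the median of all genes in heavy against light from -0.04 to -0.22; the 78 genes stood 1.14 above it under each of 4 scalings.

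Of 1008 values of named genes under alternatives 914 kept direction and call, 25 lost and 49 gained a call, and 20 changed sign. Most of the named results were not called in the main fit, and for those keeping the call means staying uncalled. A missing adjusted p was counted as no change. The 914 is therefore no measure of how stable the calls are. MRPS36 over both pools was -0.039 without the filter. MRPS30 in heavy against light was -0.15 with upper-quartile scaling and -0.0090 with DESeq2. When 1 library was left out, heavy against light ran from -0.30 to 0.084 for MRPS24 and from -0.090 to 0.19 for MRPS30. Over both pools, OE against control ran from -0.0013 to 0.67 for MRPS27, -0.24 to 0.34 for MRPS36 and -0.24 to 0.038 for MRPS30. It ran from -0.28 to 0.83 for MRPS36 in the heavy and from -0.17 to 0.54 for MRPS9 in the light pool. The interaction ran from -0.90 to 0.011 for MRPS31 and from -0.35 to 0.10 for MRPL30. The causes were not tested. Each group has 2 libraries, with 3 residual degrees of freedom in the fit, and each of the 78 genes had at least 100 counts in every library.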
